A study of Mus musculus with 10 samples.

Results

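The aquaporins are membrane channels that let water, and in some members glycerol and other small solutes, cross cell membranes along their gradients. Here 7 of their genes, Aqp1, Aqp3, Aqp4, Aqp5, Aqp7, Aqp9 and Aqp11, were followed in RNA sequencing of diabetic skin ulcers. They were taken by gene symbol from a table of 55421 genes, in which each symbol had 1 row. The table held 13 rows of the aquaporin family, the other 6 being Mip, Aqp2, Aqp6, Aqp8, Aqp12 and the pseudogene Aqp10-ps. The 7 genes were selected on the counts of these same libraries, with the ointment and saline values already seen. Their differences between the groups, adjusted p-values included, therefore describe this contrast and are not independent evidence of it.

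The mice were db/db animals with ulcers from surgical excision; they carry a leptin receptor mutation and become obese and diabetic, and all libraries share that background. One group received Fu Huang ointment, which is applied to the skin, together with saline (5 libraries, called ointment), and the other received saline alone (5 libraries, called saline). Administration lasted 7 days, per the series' design text. The labels name no ointment base for the saline group and give no age or sex, and they leave unsaid whether the libraries of a group are different animals. The p-values therefore rest on sample-to-sample spread that could be technical in part.

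Totals ran from 47807353 to 62896034 counts in ointment libraries and from 58145331 to 62664018 counts in saline libraries. Markers of fibroblasts, basal and differentiated keratinocytes, endothelium, macrophages and skeletal muscle were present in every library. Levels are CPM, each gene's counts scaled to a common library total, normalized by the trimmed mean of M-values (TMM), as mean ± SD over 5 libraries. Fold changes are ointment over saline from edgeR's quasi-likelihood test, with Benjamini-Hochberg adjustment over the 18509 genes tested and a threshold of 0.05. In bulk tissue, fewer cells of a type and less RNA per cell cannot be told apart, which applies to every difference given here.

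Aquaporins work as tetramers in which each subunit forms its own pore. Aqp1, Aqp4 and Aqp5 are chiefly water channels. Aqp3, Aqp7 and Aqp9 are aquaglyceroporins, which also pass glycerol, and Aqp11 is a distant member found mainly in membranes of the endoplasmic reticulum. In skin, AQP3 lies in the plasma membrane of basal keratinocytes and brings glycerol to the epidermis. Mice without Aqp3 have dry skin, and their wounds close late. AQP1 is found in the endothelium of small vessels, in red blood cells and in some fibroblasts.

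Aqp3 and Aqp1, the family's most abundant transcripts in this tissue, were both lower in the ointment ulcers. Aqp3 was 66.2 ± 17.1 CPM with ointment and 185 ± 55.7 CPM with saline. Aqp1 was 104 ± 11.3 CPM with ointment and 204 ± 56.4 CPM with saline. Of the 7 genes, these 2 fell and 5 did not pass the test; 6 had negative fold changes, against 50.3% of all genes tested. All 7 passed the low-count filter. Over all genes tested, 1.67% were called, 0.983% as lower and 0.692% as higher with ointment. The genes were chosen with this contrast known, so nothing is read from that comparison.

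The 250 bases before the RefSeq start of Aqp1, Aqp3 and Aqp7 are given below, Aqp1 and Aqp3 because both fell and Aqp7 because it lies next to Aqp3 and had a positive fold change. Aqp7 has 2 RefSeq starts, and the window before the upstream one is printed. They are from GRCm38.p6, 5′ to 3′ on the gene's own strand, and run up to the base before the start. Capitals mark matches to 6 short motifs, on either strand. These are the GC box GGGCGG, the box CACCC bound by Krüppel-like factors, TATAAA, the nuclear receptor half-site AGGTCA, the core TGGAAA of the tonicity-responsive element, and the GATA box AGATAA.
Aqp1, chr6:55336049-55336298, plus strand: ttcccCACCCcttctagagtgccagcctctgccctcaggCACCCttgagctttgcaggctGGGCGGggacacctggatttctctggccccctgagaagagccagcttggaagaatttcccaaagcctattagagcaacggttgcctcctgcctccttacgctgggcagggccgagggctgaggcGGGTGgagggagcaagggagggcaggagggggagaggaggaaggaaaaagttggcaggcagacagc
Aqp3, chr4:41098184-41098433, minus strand: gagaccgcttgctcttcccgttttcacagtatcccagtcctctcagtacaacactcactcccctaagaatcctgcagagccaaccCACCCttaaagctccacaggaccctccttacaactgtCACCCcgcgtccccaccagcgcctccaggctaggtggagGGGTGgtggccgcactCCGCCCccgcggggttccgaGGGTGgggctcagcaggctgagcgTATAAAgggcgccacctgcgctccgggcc
Aqp7, chr4:41048137-41048386, minus strand: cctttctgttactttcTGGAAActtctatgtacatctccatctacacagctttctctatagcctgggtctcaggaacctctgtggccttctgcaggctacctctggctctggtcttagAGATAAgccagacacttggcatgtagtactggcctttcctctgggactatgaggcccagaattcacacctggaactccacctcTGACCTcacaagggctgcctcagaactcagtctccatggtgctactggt

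The Aqp1 window held 1 GC box and 3 CACCC boxes, and the Aqp3 window held 1 GC box, 4 CACCC boxes and a TATAAA that begins 29 bases before the start. The window before the upstream RefSeq start of Aqp7 held none of those 3 motifs. It held 1 AGGTCA half-site, 1 TGGAAA and 1 AGATAA. The window before the other start of Aqp7 (chr4:41047963-41048212), which overlaps the printed one, held 1 CACCC box, 63 bases before that start, and 2 AGGTCA half-sites, and was 56.0% G and C. No matches overlapped each other. Among the 32851 RefSeq promoter windows of the same length, 52.0% held CACCC, 32.7% GGGCGG, 12.4% TATAAA, 18.6% TGGAAA, 14.0% AGGTCA and 9.99% AGATAA. The windows were 62.0% (Aqp1), 64.0% (Aqp3) and 50.8% (Aqp7) G and C, against a median of 52.4% over all windows. Of the genes that did not pass, Aqp5 had 3 matches, to the GC and CACCC boxes, in a window of 78.4% G and C. Aqp11 had 3 matches, to CACCC and AGGTCA, in a window of 67.2% G and C. The windows of Aqp9 held 0 and 1 matches and were 41.6% and 40.4% G and C. GC and CACCC boxes were thus not particular to the genes that fell. A match is a string of letters and not evidence that a factor binds there.

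Set against each other per length, Aqp1 and Aqp3 stood far above the rest of the family. On the scale of CPM per kilobase of merged exons, Aqp1 was at 39.5 ± 4.30 with ointment and 77.6 ± 21.5 with saline. Aqp3 was at 36.2 ± 9.33 with ointment and 101 ± 30.4 with saline. Their ranges over libraries overlapped each other in both groups, and neither overlapped that of Aqp9, the next gene. Together they made up 88.8 ± 2.38% of the family's summed CPM per kilobase with ointment and 94.8 ± 0.743% with saline. The family's sum itself was 72.3 to 101 CPM per kilobase in ointment libraries and 177 to 209 in saline libraries, without overlap, as follows from its 2 largest members.

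Below them came Aqp9, at 4.20 ± 1.83 CPM per kilobase with ointment and 4.32 ± 1.02 with saline. Aqp7 (2.11 ± 1.41 with ointment and 0.948 ± 0.482 with saline) and Aqp5 (0.953 ± 0.766 with ointment and 1.45 ± 0.721 with saline) followed. Aqp7 ranked above Aqp5 with ointment and below it with saline, but their ranges overlapped in both groups. Aqp11 (0.145 ± 0.0401 with ointment and 0.161 ± 0.0731 with saline) and Aqp4 (0.127 ± 0.243 with ointment and 0.244 ± 0.203 with saline) were lowest of the 7. The ranges of Aqp11 and Aqp4 overlapped as well. Between Aqp5 and Aqp11 there was a gap in the ointment group. Aqp4 crossed it, with a highest library of 0.560 against a lowest of 0.317 for Aqp5. In the saline group, Aqp7 and Aqp4, neighbours in the order there, overlapped.

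**Figure D1:**
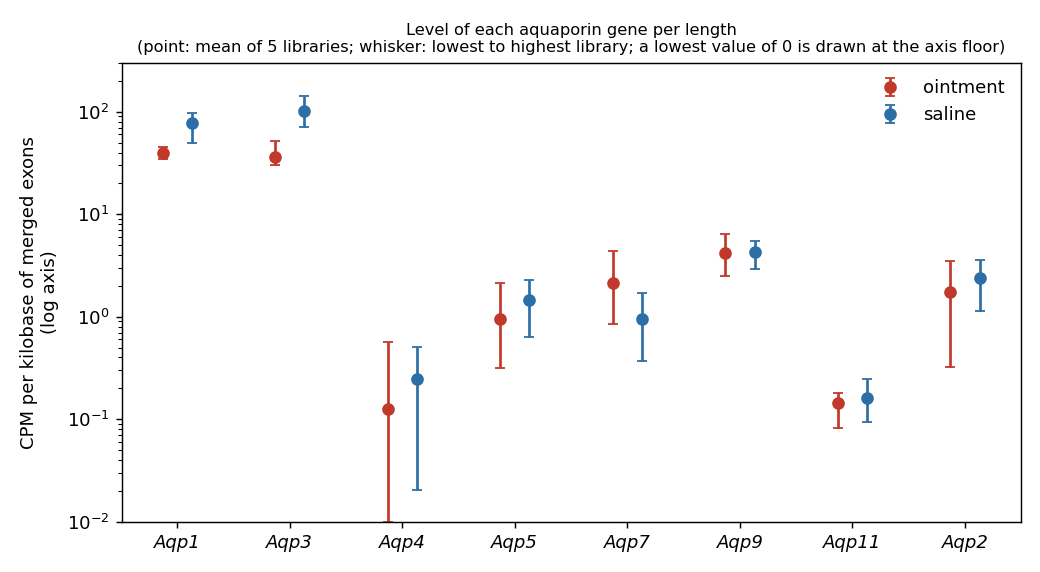
Level of 7 aquaporin genes and of Aqp2 as CPM per kilobase of merged exons on a log axis, with ointment left of saline; points are means of 5 libraries and whiskers run from the lowest to the highest library. Aqp1 and Aqp3 lie above the other genes in both groups, and both are lower with ointment (means of 39.5 and 36.2, against 77.6 and 101 with saline).

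Aqp3 (chromosome 4, 41092722 to 41098183, minus strand, GRCm38) was 56.4, 94.3, 54.6, 70.9 and 55.0 CPM in ointment libraries 1 to 5. It was 258, 168, 129, 228 and 144 CPM in saline libraries 1 to 5. Every ointment library was below every saline library, and the lowest saline value was 1.36 times the highest ointment value. Groups without overlap in this direction occurred in 3.44% of all genes tested, in 3.11% in the other direction and in 6.54% for both together. The log2 fold change of Aqp3 was -1.48 (SE 0.24, 95% confidence interval -2.01 to -0.96, adjusted p = 0.0183 by edgeR), a level 2.80-fold lower with ointment. It passed in 7 of the 10 fits with 1 library left out; adjusted p was 0.0505 without ointment 1, 0.0575 without ointment 3 and 0.0537 without ointment 5. With saline 1 and ointment 5 both left out, it was -1.27 (adjusted p = 0.0965).

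Aqp1 (chromosome 6, 55336432 to 55348555, plus strand) was 119.5, 103, 97.3, 109 and 90.0 CPM in ointment libraries 1 to 5. It was 156, 242, 258, 131 and 232 CPM in saline libraries 1 to 5. Here too the groups did not overlap, but the gap was narrow: saline 4 was 1.10 times ointment 1. The ointment libraries lay close together, with a coefficient of variation of 10.9% against 27.7% in the saline libraries. The log2 fold change was -0.97 (SE 0.19, 95% confidence interval -1.41 to -0.54, adjusted p = 0.0399 by edgeR), a level 1.96-fold lower with ointment.

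The call of Aqp1 was near the threshold and held in 1 of 10 leave-one-out fits, that without saline 4 (adjusted p = 0.0305). Adjusted p was 0.0727, 0.0829, 0.0994, 0.0592 and 0.0977 without ointment 1 to 5. It was 0.0528, 0.0891, 0.0826 and 0.0767 without saline 1, 2, 3 and 5. The log2 fold change stayed between -1.10 and -0.88 in those fits. It was -1.01 (adjusted p = 0.122) with saline 1 and ointment 5 both left out.

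**Figure D2:**
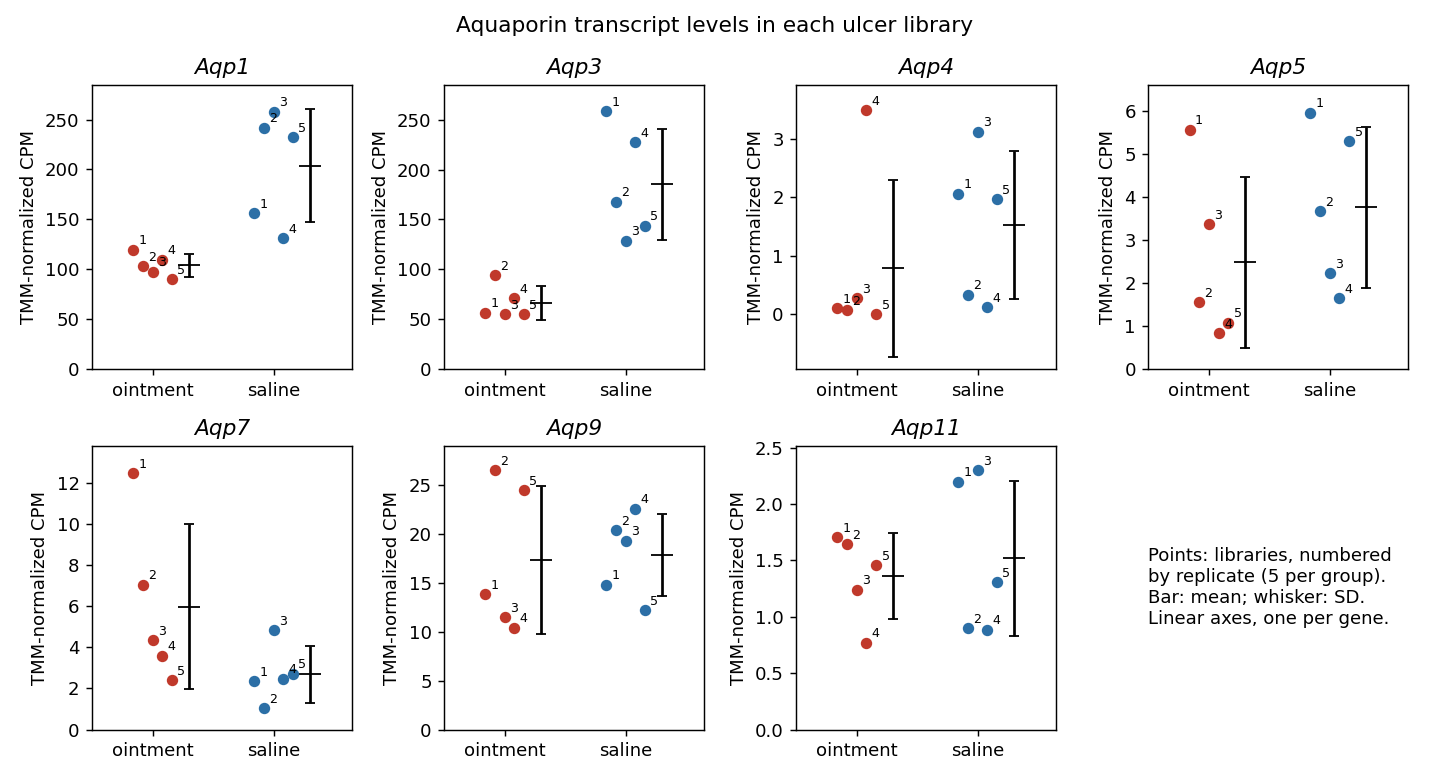
TMM-normalized CPM of the 7 aquaporin genes in each library, on a linear axis for each gene; numbered points are libraries (ointment left, saline right, 5 each), the short bar is the mean and the whisker the SD. For Aqp1 and Aqp3 all ointment libraries lie below all saline libraries, and for the other 5 genes the groups overlap.

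The saline libraries with the highest Aqp3 were not those with the highest Aqp1. Saline 1 and saline 4 held the most Aqp3 (258 and 228 CPM) and the least Aqp1 (156 and 131 CPM). Saline 2, 3 and 5 showed the reverse. In the ointment libraries, the per-length ratio of Aqp1 to Aqp3 ran from 0.761 to 1.48, against 0.400 to 1.40 in the saline libraries.

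Markers of the cells known to carry these channels were set beside them. Basal keratinocyte markers, 7 of 7 of which were tested, summed to 10482 to 19265 CPM in ointment libraries and to 10916 to 19429 CPM in saline libraries. All 7 had negative fold changes (median -0.31 on the log2 scale) and none passed. The integrin gene Itgb4, which anchors basal cells to the basement membrane, was at -0.41 on the log2 scale (adjusted p = 0.275 by edgeR), and the keratin gene Krt15 was at -0.57 (adjusted p = 0.422). Per 1000 CPM of that sum, Aqp3 was 4.59 to 5.43 CPM in ointment libraries and 8.31 to 16.3 CPM in saline libraries. These ratios did not overlap, but most of the sum was Krt14, a basal keratin (10965 ± 2553 CPM with ointment and 12720.1 ± 2838 CPM with saline). The part of this list in the difference of Aqp3 was not tested.

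Differentiated keratinocyte markers behaved otherwise. All 8 were tested, 6 had negative fold changes and 1 fell, Krtdap (353 ± 87.7 CPM with ointment and 704 ± 69.5 CPM with saline, adjusted p = 0.0222 by edgeR). The 2 with positive fold changes, Dsg1a (0.74 on the log2 scale, adjusted p = 0.446) and Ivl (1.51, adjusted p = 0.644), did not pass. The sum of the 8 was 1372 to 3253 CPM in ointment libraries and 3971 to 10165 CPM in saline libraries, without overlap. Most of this sum was Krt1 (649 ± 307 CPM with ointment and 2644 ± 945 CPM with saline) and Krt10 (547 ± 227 CPM with ointment and 1911 ± 1192 CPM with saline). Neither passed (adjusted p = 0.0564 and 0.0778 by edgeR). Per 1000 CPM of this sum, Aqp3 was 21.8 to 40.1 CPM with ointment and 16.9 to 57.4 CPM with saline, which overlapped. The part of the differentiated list was not tested either. Of the 8 hair follicle markers 7 fell, against 0.983% of all genes tested. Their sums of 12.4 to 39.1 CPM with ointment and 36.0 to 682 CPM with saline overlapped. Sebocyte markers summed to 783 to 4400 CPM with ointment and 820 to 3390 CPM with saline, and none of the 7 passed.

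For Aqp1, the fold changes of all 10 endothelial markers were negative, and 0 of them passed. Pecam1, an adhesion receptor of endothelial junctions, was at -0.52 on the log2 scale (adjusted p = 0.0646 by edgeR), and Esam was at -1.12 (adjusted p = 0.166). Only Pecam1 of the 10 was lower without overlap between groups, which held in 3.44% of all genes tested. The sum of the 10 was 471 to 799 CPM in ointment libraries and 718 to 1024 CPM in saline libraries, which overlapped. Per 1000 CPM of it, Aqp1 was 146 to 218 CPM with ointment and 182 to 331 CPM with saline. Those ratios overlapped, but only ointment 2 and 5 (218 and 191 CPM) lay above the lowest saline value (182 CPM, saline 4). The part of the endothelial list in the difference of Aqp1 was not tested.

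Red blood cell markers, 6 of 7 of which were tested and 0 of which passed, summed to 221 to 3050 CPM in ointment libraries and to 362 to 3888 CPM in saline libraries, with the highest values in ointment 4 and saline 5. Aqp1 was 109 CPM in ointment 4, in a group range of 90.0 to 119.5 CPM. It was 232 CPM in saline 5, in a group range of 131 to 258 CPM. Fibroblast markers summed to 18063 to 58800 CPM with ointment and 35744 to 54343 CPM with saline, and none of the 7 passed. The parts of these lists in the difference of Aqp1 were not tested.

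**Figure D3:**
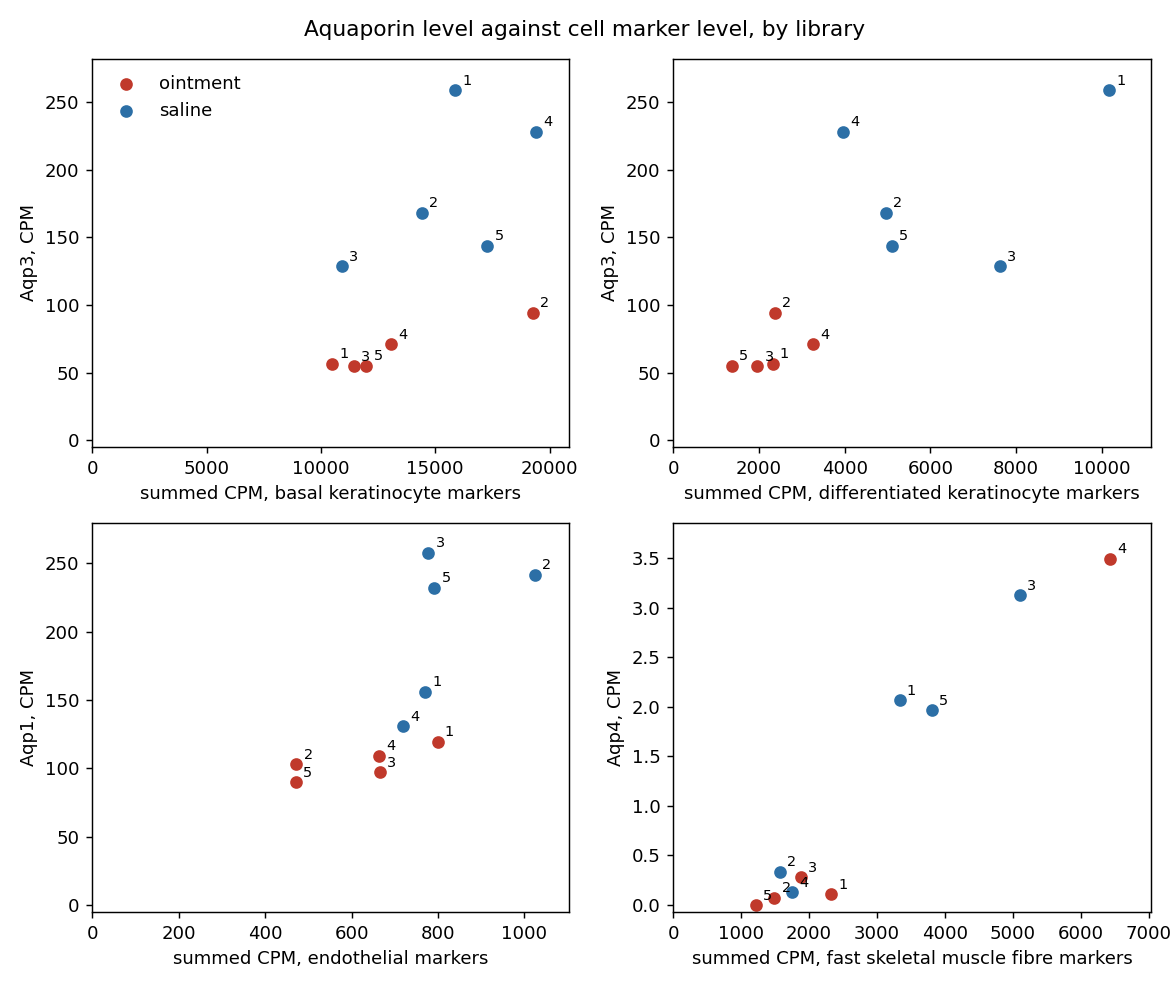
Level of an aquaporin gene (CPM, vertical) against the summed CPM of a cell marker list (horizontal) in each numbered library, ointment in red and saline in blue, on linear axes. Per 1000 CPM of basal keratinocyte markers, mostly Krt14, Aqp3 is 4.59 to 5.43 CPM with ointment and 8.31 to 16.3 CPM with saline. Per 1000 CPM of differentiated keratinocyte markers it is 21.8 to 40.1 and 16.9 to 57.4 CPM, which overlap. Aqp4 is high in the 4 libraries with the highest muscle marker sums (3332 to 6432 CPM). The part of these lists in the aquaporin levels was not tested.

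Aqp7, the channel through which adipocytes release glycerol when fat is broken down, lies 44.6 kb from Aqp3 on chromosome 4 (41033074 to 41048139, minus strand). It was 12.4, 7.04, 4.34, 3.60 and 2.40 CPM in ointment libraries 1 to 5, and 2.35, 1.04, 4.83, 2.48 and 2.71 CPM in saline libraries 1 to 5. It was highest in ointment 1 and 2, and the groups overlapped. Its log2 fold change was 1.15 (SE 0.50, 95% confidence interval 0.03 to 2.27, adjusted p = 0.277 by edgeR), the only positive value of the 7. Without ointment 1 it was 0.70 (adjusted p = 0.5).

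Adipocyte markers moved in both directions. Of 8 tested, the leptin gene Lep rose (156 ± 104 CPM with ointment and 8.71 ± 4.74 CPM with saline, adjusted p = 0.0347 by edgeR). The adipsin gene Cfd fell (55.5 ± 45.6 CPM with ointment and 386 ± 198 CPM with saline, adjusted p = 0.0384). Over all genes tested, 0.692% rose and 0.983% fell. The sum of the 8 was 1155 to 2101 CPM in ointment libraries and 744 to 2213 CPM in saline libraries. Fabp4 was its largest part (1239 ± 277 CPM with ointment and 613 ± 252 CPM with saline). Per 1000 CPM of that sum, Aqp7 was 1.43 to 5.92 CPM with ointment and 1.11 to 3.15 CPM with saline, which overlapped. The part of the adipocyte list in the value of Aqp7 was not tested.

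Aqp9, an aquaglyceroporin of liver that is also found in neutrophils and other leukocytes, had nearly the same mean in both groups (chromosome 9, 71110659 to 71168682, minus strand). It was 13.9, 26.6, 11.5, 10.4 and 24.5 CPM in ointment libraries 1 to 5 and 14.8, 20.4, 19.3, 22.6 and 12.2 CPM in saline libraries 1 to 5. Ointment 2 and 5 were the highest of all 10 libraries and ointment 3 and 4 the lowest. Aqp9 had a log2 fold change of -0.04 (SE 0.30, 95% confidence interval -0.71 to 0.63, adjusted p = 0.97 by edgeR), and its sign changed in 5 of 10 leave-one-out fits.

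Neutrophil markers, all 8 with positive fold changes and none past the threshold, summed to 1687 to 7820 CPM in ointment libraries and to 851 to 2728 CPM in saline libraries. The collagenase gene Mmp8 was at 2.79 on the log2 scale (adjusted p = 0.0635 by edgeR) and the calgranulin gene S100a8 at 1.26 (adjusted p = 0.13). Ointment 5 and 2, highest in Aqp9 within their group, also had the highest neutrophil sums, 7820 and 5019 CPM. In the saline group it was saline 4, with 22.6 CPM of Aqp9 and a sum of 2728 CPM. Per 1000 CPM of neutrophil markers, Aqp9 was 3.13 to 6.19 CPM with ointment and 8.29 to 17.4 CPM with saline, without overlap. Most of that sum was S100a8 (1444 ± 738 CPM with ointment and 603 ± 246 CPM with saline) and S100a9. The latter was 1898 ± 1231 CPM with ointment and 809 ± 434 CPM with saline, so the ratio mainly follows these genes. Of 8 macrophage markers 3 rose, against 0.692% of all genes tested. Their sum was 2348 to 3980 CPM with ointment and 1159 to 2158 CPM with saline, without overlap. Set against macrophage markers, Aqp9 was 2.89 to 11.3 CPM per 1000 CPM with ointment and 5.66 to 14.1 CPM with saline, which overlapped. The parts of both lists in the level of Aqp9 were not tested.

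Aqp4, the channel that fast skeletal muscle fibres hold in their outer membrane by way of the dystrophin complex, was present in some libraries and nearly absent from others (chromosome 18, 15389496 to 15410982, minus strand). It was 0.107, 0.0747, 0.281, 3.49 and 0 CPM in ointment libraries 1 to 5 and 2.06, 0.338, 3.12, 0.127 and 1.97 CPM in saline libraries 1 to 5. Ointment 4 and saline 1, 3 and 5 were high, and the other 6 libraries were at or below 0.338 CPM. For Aqp4 the log2 fold change was -0.94 (SE 1.33, 95% confidence interval -3.91 to 2.03, adjusted p = 0.801 by edgeR). Without ointment 4 it was -3.67 (adjusted p = 0.14).

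The same 4 libraries held the most transcript of fast muscle fibres. The summed muscle markers were 6432 CPM in ointment 4 and 1215 to 2327 CPM in the other ointment libraries. They were 3332, 5106 and 3803 CPM in saline 1, 3 and 5 and 1567 and 1744 CPM in saline 2 and 4. None of the 10 muscle markers passed, with Myh4, a fast myosin heavy chain, at -0.80 on the log2 scale (adjusted p = 0.659 by edgeR) and the muscle creatine kinase gene Ckm at -0.60 (adjusted p = 0.711).

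Aqp5, a water channel of secretory cells in salivary, lacrimal and sweat glands, overlapped between the groups (chromosome 15, 99590782 to 99594829, plus strand). It was 5.56, 1.55, 3.37, 0.824 and 1.08 CPM in ointment libraries 1 to 5 and 5.96, 3.67, 2.23, 1.64 and 5.30 CPM in saline libraries 1 to 5. High and low libraries occurred in both groups. The log2 fold change was -0.60 (SE 0.57, 95% confidence interval -1.88 to 0.67, adjusted p = 0.676 by edgeR). Markers of simple and glandular epithelium were low, with sums of 42.2 to 61.1 CPM with ointment and 60.7 to 106 CPM with saline. The gland cell regulator gene Foxi1 was at 0 in every library. Of the 6 markers tested, 4 had positive fold changes (median 0.25 on the log2 scale). None of the 6 passed, with Epcam at -0.77 on the log2 scale (adjusted p = 0.0519 by edgeR) and Krt19 at 0.72 (adjusted p = 0.353). Per 1000 CPM of their sum, Aqp5 was 13.5 to 123 CPM with ointment and 21.6 to 87.4 CPM with saline.

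Aqp11 (chromosome 7, 97724006 to 97738289, minus strand) was 1.70, 1.64, 1.24, 0.770 and 1.46 CPM in ointment libraries 1 to 5 and 2.20, 0.900, 2.30, 0.886 and 1.31 CPM in saline libraries 1 to 5. Saline 1 and 3 were the highest, and the groups overlapped. The log2 fold change was -0.15 (SE 0.36, 95% confidence interval -0.96 to 0.65, adjusted p = 0.893 by edgeR). Its sign changed in 3 of 10 leave-one-out fits. For the 5 genes that did not pass, the intervals leave room for changes of more than 1.5-fold in at least 1 direction, so a difference of that size may have gone undetected.

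**Figure D4:**
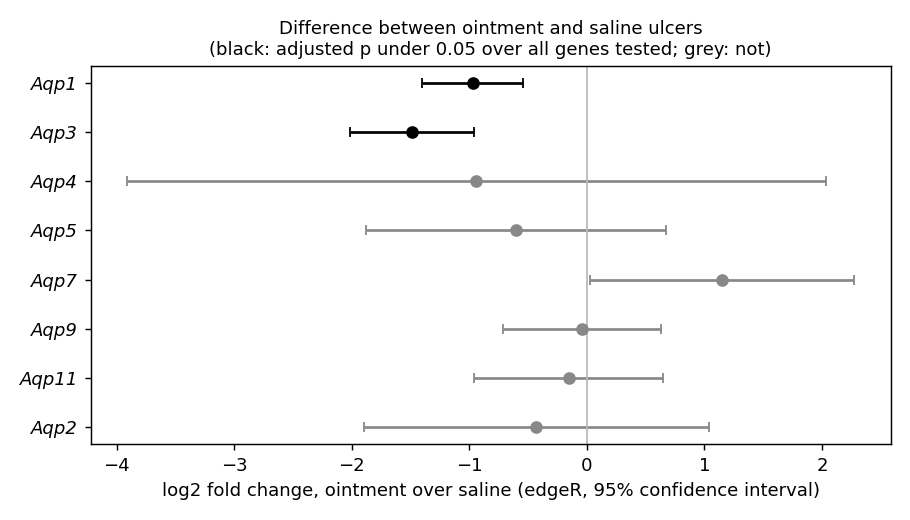
Log2 fold change of ointment over saline for the 7 aquaporin genes and Aqp2, with 95% confidence intervals from edgeR over 10 libraries; black points passed an adjusted p of 0.05 over all genes tested and grey points did not. Aqp1 (-0.97) and Aqp3 (-1.48) are the black points, and Aqp4 has the widest interval, from -3.91 to 2.03.

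Among the other family members, only Aqp2, the vasopressin-regulated water channel of the kidney collecting duct, had enough counts to be tested. It was 4.96, 0.561, 2.58, 3.92 and 0.454 CPM in ointment libraries 1 to 5 and 1.60, 4.42, 3.70, 1.98 and 5.09 CPM in saline libraries 1 to 5. The groups overlapped, and the edgeR estimate was -0.43 on the log2 scale (SE 0.66, adjusted p = 0.821). Per length, at 1.76 ± 1.41 CPM per kilobase with ointment and 2.37 ± 1.07 with saline, it ranked next to Aqp5, whose gene begins 6.23 kb downstream of it. The ranges of Aqp2 and Aqp5 overlapped in both groups.

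The remaining family rows were at or near 0. Mip, the lens fibre channel, had 40 counts in all with ointment and 26 with saline, and 1.22 kb of its exons are shared with the overlapping Gm26847. Aqp8 had 38 counts with ointment and 18 with saline. Aqp12 had 16 counts with ointment, in 2 libraries, and 0 with saline. Aqp6 was at 0 in all 10 libraries, and Aqp10-ps had 5 counts with ointment and 22 with saline. These rows did not pass the low-count filter, and no difference was computed for them.

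None of the 8 tested genes that lie next to an aquaporin gene and are outside the family passed. Nol6, 16.2 kb from Aqp3, was at 0.23 on the log2 scale (adjusted p = 0.307 by edgeR), and Mindy4, 16.2 kb from Aqp1, was at 0.07 (adjusted p = 0.913). On the far side of Aqp7, 7.08 kb away, Nfx1 was at -0.09 (adjusted p = 0.685). Clns1a, 3.21 kb from Aqp11 and itself a regulator of cell volume-sensitive chloride currents, was at -0.42 (adjusted p = 0.495), and Pak1 on its other side was at 0.12 (adjusted p = 0.722). Around Aqp9, Lipc was at -0.09 (adjusted p = 0.942) and Aldh1a2 at 0.53 (adjusted p = 0.748). Kctd1, on one side of Aqp4, was at -0.63 (adjusted p = 0.307). Ghrhr, Chst9 and Aqp6, the other neighbours, were not tested.

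Of 15 genes tested that take up and re-use glycerol, or release it, 1 rose and 14 did not pass. Over all genes tested, 0.692% rose. Positive fold changes were found in 10 of the 15, against 49.7% of all genes tested, and the median was 0.61 on the log2 scale, against -0.0025 over all genes tested. The gene that rose was Agpat2, an acyltransferase that builds phosphatidic acid on a glycerol backbone (57.4 ± 5.20 CPM with ointment and 35.9 ± 4.93 CPM with saline, log2 fold change 0.68, adjusted p = 0.0278 by edgeR). Plin1, which coats lipid droplets and gates their breakdown and is in the adipocyte list too, was at 1.24 on the log2 scale (adjusted p = 0.0763). The fat lipase gene Pnpla2 was at 0.88 (adjusted p = 0.119). Pck1, whose enzyme serves the making of glycerol phosphate from smaller precursors, had the value farthest from 0 in the list, -1.26 (adjusted p = 0.285). Gk, whose enzyme phosphorylates glycerol that enters through aquaglyceroporins, was at 0.17 (adjusted p = 0.903). Gk, and each other gene named here outside the naming rule, was chosen after its value was seen.

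Ion channels and pumps that set up the gradients for water movement gave no call. Of 19 tested, 0 passed and 12 had negative fold changes (median -0.21 on the log2 scale). The sodium channel subunit gene Scnn1b was 4.08 ± 0.560 CPM with ointment and 6.97 ± 1.17 CPM with saline (adjusted p = 0.0686 by edgeR). The potassium channel gene Kcnn4 was 14.2 ± 2.63 CPM with ointment and 7.98 ± 2.44 CPM with saline (adjusted p = 0.0987). In these 2 of the 19 genes the groups did not overlap, which held in 6.54% of all genes tested.

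The hypertonic stress response, through which NFAT5 raises transporters of compatible osmolytes, had 0 of 10 genes past the threshold and a median of 0.32. The taurine transporter gene Slc6a6 was 284 ± 35.3 CPM with ointment and 203 ± 21.8 CPM with saline (adjusted p = 0.0757 by edgeR). Slc6a12, which carries betaine, was 2.64 ± 0.709 CPM with ointment and 1.13 ± 0.367 CPM with saline (adjusted p = 0.0763). Nfat5 itself was at 0.37 on the log2 scale (adjusted p = 0.685).

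The dystrophin complex that holds Aqp4 at the muscle membrane had 0 of 12 genes past the threshold (median -0.03 on the log2 scale). Sgcd was at 0.37 (adjusted p = 0.26 by edgeR) and Sspn at -0.59 (adjusted p = 0.41).

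Aqp3 also carries hydrogen peroxide, and some aquaporins pass urea or ammonia. Of 12 genes tested that make, remove or carry these solutes, 0 passed (median -0.14 on the log2 scale). Duox1, a peroxide-producing oxidase of epithelia, was 8.66 ± 0.992 CPM with ointment and 12.7 ± 1.17 CPM with saline (adjusted p = 0.0725 by edgeR). The ammonia channel gene Rhbg was 3.29 ± 1.14 CPM with ointment and 8.63 ± 3.74 CPM with saline (adjusted p = 0.0858). In these 2 of the 12 genes, every ointment library was below every saline library, which held in 3.44% of all genes tested.

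**Figure D5:**
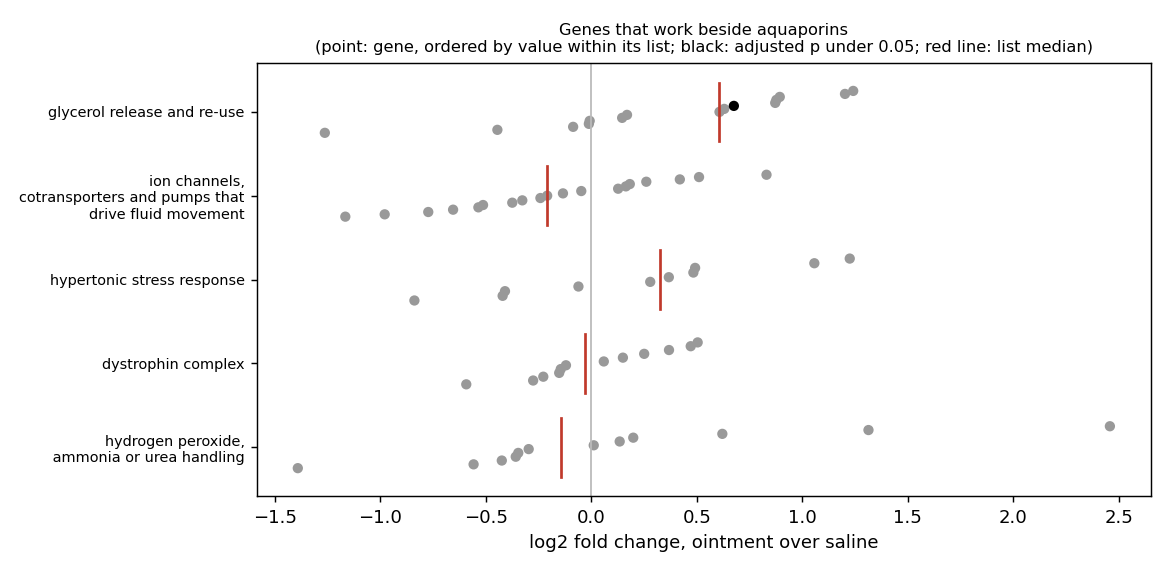
Log2 fold change of ointment over saline for each gene of 5 lists that work beside aquaporins; points are genes in order of value within their list, the red line is the list's median, and black marks an adjusted p under 0.05 over all genes tested. The only black point is Agpat2 (0.68), in the glycerol list with a median of 0.61.

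The genes whose levels ran most like those of each aquaporin were sought among 11874 tested genes, as the highest Pearson r of log2(CPM + 1) over the 10 libraries with the group means removed. They are a description of these libraries, without a test, since the highest of many values is large by construction. For Aqp4 they were the muscle genes Ckm (r = 0.989, Spearman's rho = 0.988), Scn4b (0.984) and Mylk4 (0.971). For Aqp9 they were Stk24 (r = 0.979), the pentose phosphate pathway gene Pgd (0.974) and Piwil2 (0.967). For Aqp1 they were Lix1l (r = 0.964), Tril (0.959) and Pdp1 (0.928), and for Aqp3 Myo19 (r = 0.963), Nup35 (0.929) and Yeats4 (0.929). Ppm1g (r = 0.942), Mmrn2 (0.933) and Tbc1d19 (0.922) ran most like Aqp5, and Nudt9 (r = 0.907), Adi1 (0.902) and Slc26a11 (0.887) most like Aqp7. For Aqp11 they were Zfand3 (r = 0.937), Sumf2 (0.926) and Ercc2 (0.910).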

How the data were processed

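RNA from a column extraction went into SMARTer mRNA libraries, per the labels' protocols. Strand is not stated. Genes on the opposite strand overlap Aqp4 and Aqp9, among them the processed pseudogene Gm47268 at Aqp9, but share 0 exon bases with them. Reads outside annotated exons there cannot be told apart without the strand. The build named is GRCm38 (mm10), per the submitters' processing notes. Aligner and counter: not given in the sources used here. Estimated counts per gene were deposited by the authors as whole numbers, without normalization. Among them 4 and its multiples are over-represented, so a value may not equal a number of reads. The main fit used them unchanged as counts, and values divided by 4 were an alternative. Rounding changed nothing, and 0 value columns were left unused.

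Groups were compared with edgeR 4.0.16 (R 4.3.3; robust quasi-likelihood F-test, TMM, filterByExpr with a minimum count of 10 and total of 15), two-sided, with group as the only term. Locations and exon lengths came from GENCODE mouse release 21 and promoters from RefSeq.

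The genes and lists were chosen with earlier results of these data known. Genes named were the 7 aquaporins, their family and neighbours, and, per pathway list, those past the threshold and the 2 next by p. Cell lists are given by their sums with up to 2 genes, or fewer, of smallest p, and likeness by 3 genes with at least 5 CPM. Alternatives were other scalings, filters and tests (DESeq2 1.42.0, limma 3.58.1 voom), values divided by 4, the replicate number as a block, each library left out, and the longest transcript as length. Ratios to marker lists were chosen after values were seen. Intervals cover the spread between libraries only.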

Additional observations from a re-analysis of the deposited data

Results flagged for a closer look

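Aqp4 in ointment 4, at 3.49 CPM, stood apart from the other ointment libraries, which were at 0 to 0.281 CPM: its gap to the nearest of them was 92.0% of the group's range. Of the 14 sets of 5 libraries examined in this way, 1 was singled out, and chance alone does so in about 5% of such sets. The same library had the highest sum of fast muscle fibre markers (6432 CPM); the part of muscle in the value was not tested.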

How the results depend on the processing

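Aqp1 and Aqp3 kept negative fold changes in all fits run, and both passed under the other scalings, filters and tests without a block and with all libraries (Aqp1 -1.02 to -0.92, Aqp3 -1.54 to -1.47). For Aqp1, adjusted p in those settings ran from 0.000323 (DESeq2) to 0.0497 (edgeR without the low-count filter), and was 0.0487 by limma voom. With each library left out, 102 to 422 genes of all tested and 0 to 2 aquaporin genes were called. With saline 1 and ointment 5 both left out, 59 genes and 0 aquaporin genes were called. DESeq2 called 1682 genes. With the replicate number as a block, 0 genes by edgeR (2602 at an unadjusted p under 0.05) and 0 aquaporin genes were called. In that fit Aqp3 was at -1.47 (adjusted p = 0.141 by edgeR) and Aqp1 at -0.93 (adjusted p = 0.205). Over all genes tested, same-numbered libraries did not deviate together (correlations of -0.101 to 0.0686). Such correlations cannot exclude a shared day or batch that touches few genes, and the labels do not say whether the numbers pair the samples. Leaving out 1 library gave -0.25 to 0.10 for Aqp9 and -0.31 to 0.0296 for Aqp11, around 0. With the longest transcript as length, Aqp9 was at 6.29 CPM per kilobase with ointment and 6.47 with saline, and Aqp11 at 0.235 with ointment and 0.262 with saline, by construction. The cause of the other shifts was not tested. Aqp4, Aqp5, Aqp7 and Aqp11 were not tested with the 5 CPM filter, nor Aqp4 with values divided by 4.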
